A study of Mus musculus with 8 samples.

Results

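Krüppel-like factors (KLFs) are a family of transcription factors with a conserved set of zinc fingers at the carboxyl end. The genes described here are those of the deposited count table named Klf followed by a number and holding at least 40 UMIs (unique molecular identifiers, each marking 1 captured transcript) over all libraries. This rule took 10 of the 10913 listed genes: Klf2, Klf3, Klf4, Klf6, Klf7, Klf9, Klf10, Klf11, Klf13 and Klf16. Klf9, with 111 UMIs, was the lowest gene inside the limit, and Klf5, with 39 UMIs, was just outside it, as was Klf1 with 24. Klf2, Klf6 and Klf7 were singled out for their direction in the comparison of knockout with wild type, so their values in that comparison are given as a description, with no p. The other 7 genes were chosen by name and total count, and for them the comparison is a test.

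The libraries came from group 2 innate lymphoid cells (ILC2), lymphocytes that reside in tissues and release type 2 cytokines, sorted from enzymatically dissociated thymus. Of 8 libraries, 4 came from untreated young male Il25 KO mice, which lack the cytokine IL-25, and 4 from untreated age-matched male WT mice. The labels give neither the strain nor how the Il25 allele was made, and do not say whether each replicate was a separate animal, so p-values speak only for the spread among these libraries. The comparison asks which transcripts of thymic ILC2 differ where IL-25 is missing, and Il25 itself was not analysed here, so the genotype labels were not checked against its transcript.

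All KLFs bind GC-rich and CACCC-type sequences, and members differ in the partners they recruit. Klf2, Klf4, Klf6 and Klf7 act mainly as activators, Klf3 recruits the corepressor CtBP, and Klf9, Klf10, Klf11, Klf13 and Klf16 recruit the corepressor Sin3A. In T cells Klf2 keeps resting cells quiescent and drives genes for tissue exit and lymph node homing, S1pr1 among them. Klf6 and Klf7 are close relatives in sequence.

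The libraries held 1915365 to 3250718 UMIs, and counts are given as CPM, that is scaled to a fixed library total. Transcripts were counted at their 3′ ends, so a level does not depend on transcript length. Of 14 ILC2 markers 9 had values, and Il1rl1, Klrg1, Rora, Il5 and Arg1 were not analysed here. Gata3 stood at 49.0 to 82.3 CPM and Il17rb, a chain of the IL-25 receptor, at 147 to 192 CPM over the 8 libraries. Of the 9, Il13, Il4 and Icos were near the floor and held too few counts to test, and the other 6 were tested. Il13 stood at 0.790 to 9.21 CPM, Il4 at 0 to 4.19 CPM and Icos at 0 to 2.93 CPM. Every library also held thymocyte and T cell transcripts, among them Dntt, a gene of immature thymocytes, at 1835 to 2552 CPM. WT replicate 1 stood apart with 357 CPM of the T cell gene Cd8b1, where the other 7 libraries held 33.7 to 65.2 CPM. It was also the highest WT library in Klf2, Klf6, Klf7, Klf13 and Klf11, so values without it are given below. In sorted bulk samples a change in the share of contributing cells and a change in RNA per cell cannot be told apart.

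The promoters of Klf2, Klf6 and Klf7 are shown because these genes carried the largest differences in the family, the first pair higher and the last lower in the knockout. Each sequence runs 5′ to 3′ on the gene's strand (RefSeq, GRCm38.p6), starts 250 bases before the RefSeq start of transcription and ends where the first exonic base of GENCODE M21 would follow. The Klf2 window is chr8:72318812-72319032 on the plus strand, the Klf6 window is chr13:5861239-5861481 on the plus strand, and the Klf7 window is chr1:64121492-64121639 on the minus strand. The Klf7 window lies inside the annotated gene, whose longest annotated transcript begins farther upstream. Capitals mark, on either strand, the GC box, the CACCC box, the box named for its letters CCAAT, the core of the cyclic AMP element and the MEF2 site. The MEF2 site and the CArG box have variable letters and are given by name alone.
Klf2: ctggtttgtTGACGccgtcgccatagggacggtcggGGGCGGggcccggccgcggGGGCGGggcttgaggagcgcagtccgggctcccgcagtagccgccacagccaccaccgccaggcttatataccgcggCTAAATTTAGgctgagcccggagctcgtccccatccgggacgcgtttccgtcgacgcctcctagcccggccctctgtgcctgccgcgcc
Klf6: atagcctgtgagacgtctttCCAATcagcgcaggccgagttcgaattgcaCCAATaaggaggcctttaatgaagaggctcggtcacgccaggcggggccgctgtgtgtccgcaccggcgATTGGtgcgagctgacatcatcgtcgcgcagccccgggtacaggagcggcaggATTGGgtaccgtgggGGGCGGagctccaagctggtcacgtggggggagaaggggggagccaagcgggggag
Klf7: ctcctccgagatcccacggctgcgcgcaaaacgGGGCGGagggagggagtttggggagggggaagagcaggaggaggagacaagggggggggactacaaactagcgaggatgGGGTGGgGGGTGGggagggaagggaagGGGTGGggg

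The promoters of the 3 genes carried different letters. Over the full 250 bases before the start, Klf2 held a MEF2 site, the element bound by the MEF2 factors that drive Klf2 in endothelium, at bases 118 to 109 before the start. Of all 32851 promoter windows of that length, 2.92% held one, and none of the other 7 Klf promoters in the table did. Klf6 held 4 CCAAT boxes, which 33.8% of all promoters held at least once. Neither Klf2 nor Klf7 held one, while Klf9 held 3 and Klf11 and Klf13 held 2 each. Klf7 held 3 CACCC boxes, searched as CCACCC, the kind of sequence that KLFs themselves bind, at bases 138 to 106 before the start. Klf2 held 1 CACCC box, nearer the start than the printed stretch reaches, and Klf6 none. Klf3 also held 3 and Klf13 held 1, so 4 of the 8 Klf promoters had at least 1, against 28.1% of all promoters. The core of the cyclic AMP element, searched as TGACG, stood in the promoters of Klf2, Klf4, Klf9 and Klf13, or 4 of the 8, and in 17.8% of all. A GC box, searched as GGGCGG, stood in 7 of the 8 Klf promoters and in 32.7% of all promoters. An AP-1 site (TGANTCA) stood in that of Klf9 only and in 6.75% of all promoters, and a CArG box stood in none of the 8 and in 1.47% of all. All motifs were searched on both strands, and a GC box and a CACCC box can share bases. The share of G and C bases was 71.2% for Klf2, 64.8% for Klf6 and 59.2% for Klf7, where the median promoter had 52.4%. Over the 8 Klf promoters it ran from 59.2% for Klf7 to 78.4% for Klf3. The shares of motifs over all promoters were not matched for it. The bases just after the Klf4 start were not found in a GENCODE M21 transcript of Klf4, so its window is less certain. A match describes letters in this window and is not a measured site.

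In WT cells Klf2 was the most abundant family member and Klf9 the least. Klf2 averaged 379 ± 104 CPM (SD, n = 4), Klf6 followed with 159 ± 26.3 CPM and Klf4 with 94.1 ± 6.25 CPM. Averaged over all libraries, Klf2 lay above 97.7% of listed genes in level, Klf6 above 92.9% and Klf4 above 82.6%. Klf7 at 57.6 ± 9.12 CPM and Klf3 at 54.9 ± 12.4 CPM came next, and their WT libraries overlapped. Klf13 averaged 25.1 ± 6.07 CPM, Klf16 17.3 ± 0.215 CPM, Klf10 11.6 ± 1.79 CPM, Klf11 10.3 ± 1.54 CPM and Klf9 5.88 ± 1.92 CPM. Of these neighbours in WT, Klf10 and Klf11 also overlapped and the others did not. In the knockout Klf7 stood below Klf3, and it shared its range with Klf13. The order of Klf2, Klf6 and Klf4 at the top was the same in both groups, with no overlap between neighbours.

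**Figure D1:**
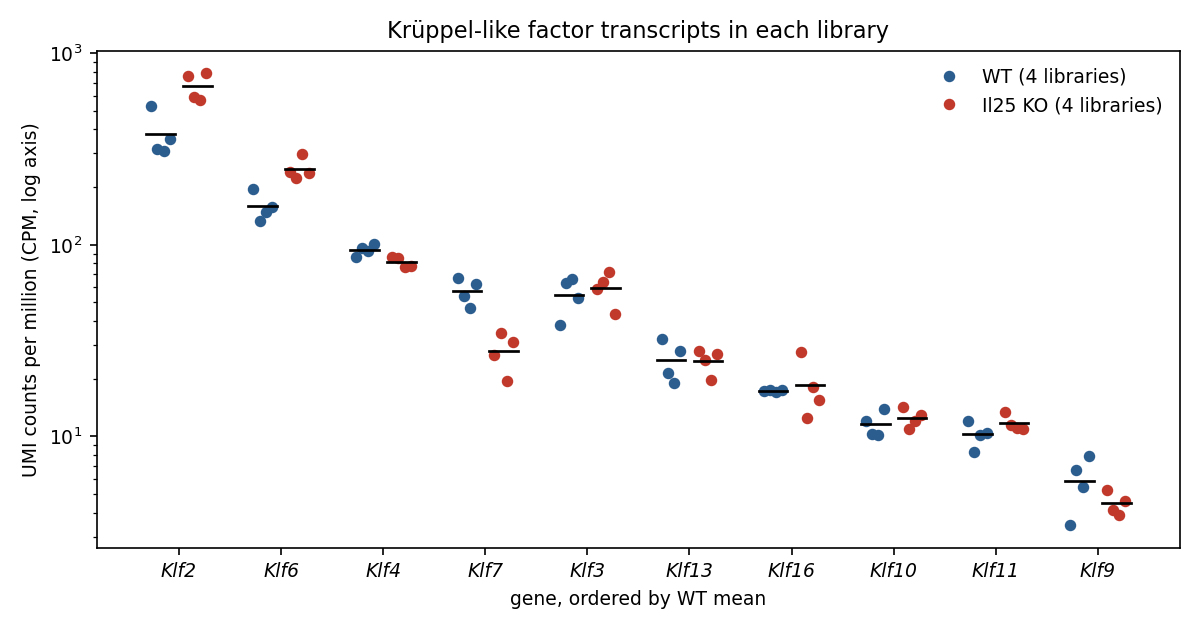
Level of each of the 10 Krüppel-like transcripts in CPM (log axis), with 1 point per library (WT left, Il25 KO right, replicates 1 to 4 in order) and a bar at the mean of 4. The 4 KO points lie above the 4 WT points for Klf2 and Klf6 and below them for Klf7 and Klf4, and the other 6 genes overlap.

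Klf2 was higher in the knockout. The KO libraries (replicates 1 to 4) held 759, 593, 570.0 and 784 CPM of Klf2, and the WT libraries 532, 315, 309 and 358 CPM. The groups did not overlap, although WT replicate 1 came close to KO replicate 3. The KO mean was 677 ± 111 CPM (SD, n = 4). The log2 fold change over WT was 0.84 ± 0.16 (SE), and without WT replicate 1 it was 1.05 ± 0.14.

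Klf6, an activator that is induced by injury and stress in many tissues, was higher as well. Its KO libraries held 239, 222, 296 and 236 CPM, and its WT libraries 195, 134, 149 and 157 CPM. The groups did not overlap, and the highest library of each group was KO replicate 3 and WT replicate 1. The log2 fold change was 0.65 ± 0.13 (SE), and it was 0.76 ± 0.12 without WT replicate 1.

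Klf7, which is needed for neuron development in mice, went the opposite way. Its KO libraries held 26.6, 34.8, 19.4 and 31.0 CPM, and its WT libraries 67.1, 54.1, 46.5 and 62.6 CPM. The highest KO library was KO replicate 2 and the lowest WT library WT replicate 3, and a clear gap lay between them. The log2 fold change was -1.06 ± 0.17 (SE), a 2.09-fold lower level in the knockout, and it was -0.99 ± 0.17 without WT replicate 1. The size of the Klf7 difference was larger than that of Klf2 or Klf6, and these were Klf7 counts of 60 to 74 UMIs per KO library against 137 to 197 per WT library.

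Of the 10 genes 3 had an edgeR adjusted p under 0.05, Klf2 and Klf6 higher and Klf7 lower in the knockout, where 0.211% of the 9016 tested genes did in either direction, 0.177% higher and 0.0333% lower. Since this comparison chose those 3, nothing is read from that count. The values depended on single libraries for the threshold, though not for direction. Klf7 no longer passed without WT replicate 2 (log2 fold change -1.09) or WT replicate 4 (-1.02), and edgeR then called 1 and 4 genes in all. Klf2 no longer passed without KO replicate 1 (0.78), KO replicate 4 (0.76), WT replicate 2 (0.76), WT replicate 3 (0.75) or WT replicate 4 (0.81). Klf6 no longer passed when any 1 of these 5 libraries was left out (0.58 to 0.67) or without KO replicate 3 (0.55).

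**Figure D2:**
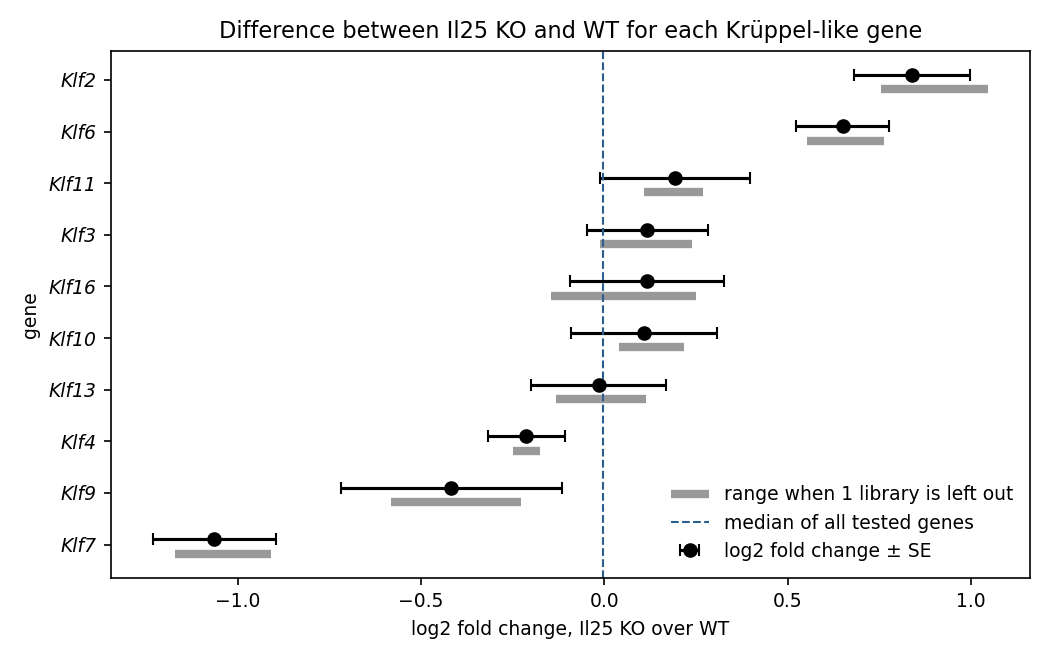
Log2 fold change of Il25 KO over WT for each gene from edgeR (points, with SE as bars), the range when each library in turn is left out (grey) and the median of all tested genes (dashed). Klf2, Klf6, Klf4, Klf9 and Klf7 stay on their side of 0 whichever library is left out, and so do Klf10 and Klf11, while Klf3, Klf13 and Klf16 cross it.

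None of the other 7 members passed the test of the knockout against WT by edgeR or DESeq2, and none had an unadjusted edgeR p under 0.05, against 10.8% of all tested genes. Their median log2 fold change was 0.11, where that of all tested genes was -0.0022, with 4 of the 7 above 0. All 10 members passed the filter on low counts.

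Klf4, a reprogramming factor that restrains lymphocyte proliferation, came nearest among the 7. Its KO libraries held 86.1, 85.2, 76.7 and 77.4 CPM, and its WT libraries 86.5, 96.0, 92.4 and 101 CPM. The groups did not overlap, by a narrow margin between KO replicate 1 and WT replicate 1, and 5.22% of all tested genes had groups that did not overlap, 2.92% with KO higher and 2.31% with KO lower. The log2 fold change was -0.21 ± 0.10 (SE), with an edgeR adjusted p of 0.468 and a 95% interval of -0.43 to 0.0063. Klf4 also had the smallest spread between libraries of 1 group, with a coefficient of variation of 6.12% in KO and 6.64% in WT, apart from Klf16 in WT at 1.25%.

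Klf3, the CtBP-recruiting member, had 58.8, 63.9, 72.5 and 43.5 CPM in the KO libraries and 38.3, 62.8, 65.9 and 52.7 CPM in the WT libraries. The groups overlapped, with the lowest value in WT replicate 1. It differed by 0.12 ± 0.17 on the log2 scale (SE, edgeR adjusted p = 0.838), with a 95% interval of -0.23 to 0.47, and without WT replicate 1 it was -0.013.

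The Sin3A-recruiting members overlapped between the groups in every case. Klf10 and Klf11, first described as genes induced by TGF-beta, differed by 0.11 ± 0.20 and 0.19 ± 0.20 (log2, SE), and their adjusted p by edgeR were 0.893 and 0.773. Klf13, known in T cells as an activator of the chemokine gene Ccl5, had -0.015 ± 0.18 (edgeR adjusted p = 0.990). Its direction turned without KO replicate 3, WT replicate 1 or WT replicate 4 and with library size alone or by limma-voom. Klf9, which responds to glucocorticoids, had -0.42 ± 0.30 (edgeR adjusted p = 0.645), with a 95% interval of -1.05 to 0.21. It rested on 8 to 25 UMIs per library. Klf16 had 0.12 ± 0.21 (edgeR adjusted p = 0.890). Its WT libraries agreed closely at 17.0 to 17.5 CPM, while the KO libraries ran from 12.5 to 27.7 CPM, and without KO replicate 1, the highest, the log2 fold change was -0.15.

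The make-up of the family shifted with these differences. The 10 genes together held 1166 ± 99.2 CPM in the knockout and 814 ± 127 CPM in wild type (SD, n = 4 each), and the KO libraries at 1063 to 1258 CPM lay above the WT libraries at 725 to 996 CPM. Klf2 and Klf6, chosen for being higher, hold most of this sum, so it is no separate result. Klf7 made up 2.41 ± 0.648% of the family's UMIs in KO and 7.09 ± 0.611% in WT. In KO replicate 2, the highest of its group, the share was 3.27% (95% exact binomial interval 2.55 to 4.14%), and in WT replicate 3, the lowest of its group, it was 6.42% (5.42 to 7.54%). These intervals cover counting error only. Since Klf2, Klf6 and Klf7 were chosen for their direction in this comparison, shares and ratios among them are a description, and part of the lower Klf7 share comes from the larger Klf2 and Klf6 counts in its denominator. The share of Klf6 was 21.5 ± 3.77% in KO and 19.5 ± 0.873% in WT, with overlap. Klf2 made up 57.8 ± 4.97% in KO and 45.9 ± 5.01% in WT, and WT replicate 1 with 53.4% lay inside the KO range.

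Within a library, the ratio of Klf6 to Klf7 UMIs needs no scaling. It was 8.99, 6.37, 15.3 and 7.64 in the KO libraries and 2.91, 2.47, 3.20 and 2.51 in the WT libraries. The lowest KO ratio, in KO replicate 2, was above the highest WT ratio, in WT replicate 3. The ratio of Klf2 to Klf7 was 28.6, 17.0, 29.4 and 25.3 in KO and 7.92, 5.82, 6.65 and 5.72 in WT, again with no overlap. The ratio of Klf2 to Klf6, both higher in the knockout, overlapped at 1.92 to 3.32 in KO and 2.08 to 2.72 in WT.

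**Figure D3:**
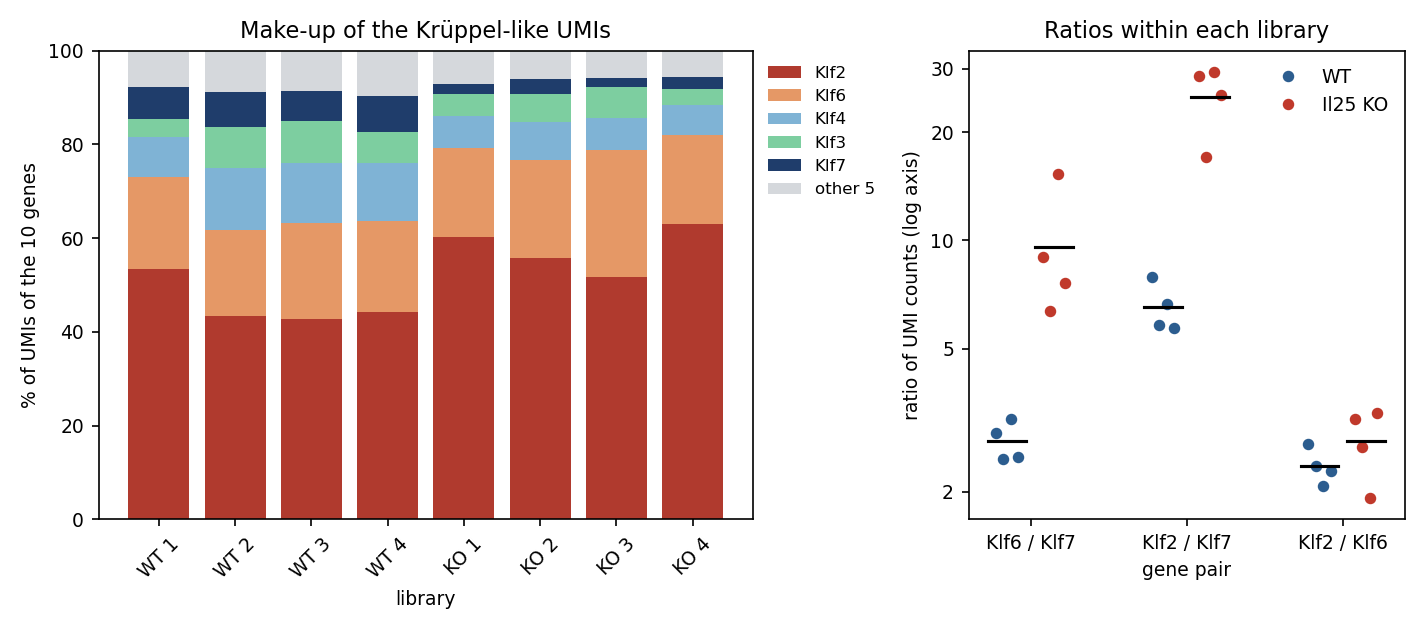
Left, share of each member in the UMIs of the 10 genes, per library, in percent. Right, ratio of UMI counts of gene pairs within each library (log axis, points are libraries, bars are means of 4). The Klf7 band is 6.42 to 7.73% in WT and 1.77 to 3.27% in KO, and the ratios over Klf7 separate the groups while Klf2 over Klf6 does not.

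Within WT all 3 genes were highest in WT replicate 1. Within KO their order differed. Klf2 was highest in KO replicates 4 and 1, and Klf7 in KO replicate 2. Klf6 was highest in KO replicate 3, where Klf2 and Klf7 were at their lowest among the KO libraries. The SD of log2 CPM within groups was 0.31 for Klf2, 0.21 for Klf6 and 0.30 for Klf7. Among the other members it ran from 0.092 for Klf4 to 0.36 for Klf9, with 0.33 for Klf3 and 0.34 for Klf16.

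The genes nearest to each in pattern were found by the root mean squared difference of mean-centred log2 CPM over the 8 libraries, among 5624 tested genes at 20 CPM or more. Nearest to Klf2 were the heat shock chaperone gene Hspa1b (0.156), the small bZIP factor gene Maff (0.167) and the chemokine gene Ccl4 (0.178), where the median gene lay at 0.531. Nearest to Klf6 were Egr1, an immediate early zinc finger factor (0.102), Dusp2, a phosphatase of MAP kinases (0.155), and Gadd45a, a stress and DNA damage gene (0.156), with a median of 0.407. Nearest to Klf7 were Tnfrsf18, which encodes the costimulatory receptor GITR (0.180), the MHC class I gene H2-Q2 (0.261) and Ptcra, the pre-T cell receptor alpha chain gene (0.284), with a median of 0.611. H2-Q2 has near-identical relatives, so its counts are uncertain. This likeness includes the difference between KO and WT that chose the 3 genes.

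Immediate early genes, which cells switch on within minutes of a stimulus, were higher in the KO libraries, as were Klf2 and Klf6, which this comparison chose. The summed level of the 25 measured immediate early genes was 6424 to 7618 CPM in the knockout and 3913 to 5355 CPM in wild type, and 8 of 24 tested members rose and 0 fell by edgeR, with a median log2 fold change of 0.49. Over all tested genes edgeR called 0.177% higher and 0.0333% lower. DESeq2 called 10 of the 24, where it called 0.499% of all tested genes. The gene lists were chosen with earlier results of these data known, so these counts are a description. Within KO the immediate early sum was highest in KO replicate 1, Klf2 in KO replicate 4 and Klf6 in KO replicate 3. The summed level of 11 heat shock genes was 36785, 30531.5, 31032 and 39457 CPM in the KO libraries and 30005, 20949, 23725.5 and 27853 CPM in the WT libraries, and none of 10 tested members passed by edgeR, while 6 had an unadjusted edgeR p under 0.05, against 10.8% of all tested genes, and DESeq2 called 1, Hspa1b. WT replicate 1 was the highest WT library in both sums and in Klf2, Klf6 and Klf7. KO replicates 1 and 4 were the highest KO libraries in the heat shock sum and in Klf2. When the mean log2 CPM of the heat shock genes entered the fit as a covariate, added after seeing the data, the log2 fold change was 0.48 ± 0.17 (SE) for Klf2, 0.50 ± 0.17 for Klf6 and -1.22 ± 0.22 for Klf7. With it edgeR called 0 genes and 916 lay at an unadjusted p under 0.05, where edgeR without it called 19 genes with 977 at an unadjusted p under 0.05. The tissue was dissociated by enzymes in both groups, and the part of handling in these levels was not tested.

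**Figure D4:**
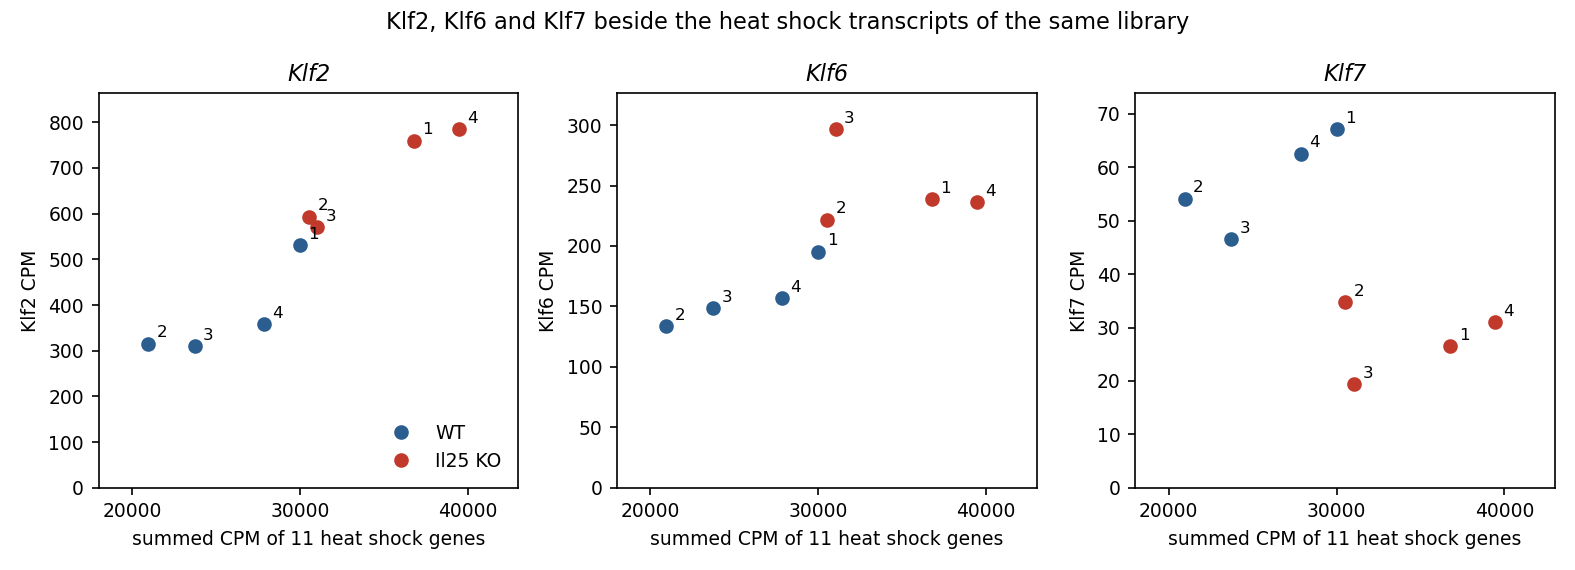
CPM of Klf2, Klf6 and Klf7 (vertical axes from 0) against the summed CPM of 11 heat shock genes (horizontal axis does not start at 0) in the same library, numbered by replicate. The libraries with the most heat shock transcripts in their group, KO replicates 1 and 4 and WT replicates 1 and 4, are highest in Klf2 within it. Every KO library is higher in Klf2 and Klf6 and lower in Klf7 than every WT library, the difference that chose these genes. The heat shock sums of WT replicate 1 and of KO replicates 2 and 3 nearly meet. The part of heat shock in these differences was not tested.

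Markers of other cell types gave the following values beside these results. The summed level of 15 thymocyte and T cell markers was 4221 to 4694 CPM in the knockout and 3884 to 5268 CPM in wild type. None of 13 tested members passed by edgeR, while DESeq2 called Cd3d and Ptcra, where it called 0.499% of all tested genes. At an unadjusted edgeR p under 0.05, reached by 10.8% of all tested genes, 4 members were lower in the knockout (Cd3d, Cd8a, Cd8b1 and Ptcra) and 2 higher (Dntt and Bcl11b). Cd8a and Cd8b1 stood at 81.7 and 357 CPM in WT replicate 1. The other WT libraries held 8.83 to 12.3 CPM of Cd8a and 55.7 to 65.2 CPM of Cd8b1. The KO libraries held 6.24 to 11.3 CPM and 33.7 to 48.1 CPM, so much of both differences came from WT replicate 1. Cd3d, a chain of the CD3 complex, was 121 to 189 CPM in the knockout and 217 to 318 CPM in wild type, a difference of -0.73 ± 0.15 on the log2 scale (SE, edgeR adjusted p = 0.0521). Dntt differed by 0.25 and Bcl11b, a T lineage factor gene, by 0.41 on that scale, so the list did not go one way. With the mean of the T cell genes as a covariate, added after seeing the data, the log2 fold changes were 1.09 for Klf2, 0.81 for Klf6 and -0.98 for Klf7. WT replicate 1 held the highest sum of these markers. With that library left out and no covariate, the values were close to these, at 1.05, 0.76 and -0.99. Of 10 NK and ILC1 markers 5 were measured, with sums of 994 to 1161 CPM in the knockout and 909 to 1126 CPM in wild type. Ifng, which encodes interferon gamma, rose (log2 fold change 0.66 ± 0.12, SE, edgeR adjusted p = 0.0187). Gzma, which encodes a granzyme and was the most abundant of these markers, differed by -0.31 ± 0.13 (log2, SE) and did not pass. Tbx21, the gene of the factor that defines ILC1, stood at 0 to 3.35 CPM. Sums of 3 ILC3 markers, Il22, Ahr and Kit, were 58.2 to 71.9 CPM in the knockout and 59.8 to 68.8 CPM in wild type, and those of the 4 myeloid markers measured were 39.8 to 46.2 CPM and 29.2 to 43.4 CPM. Their members went both ways and none passed by edgeR. Ahr differed by -0.56 ± 0.21, Il22 by -0.052 ± 0.30 and Kit by 0.22 ± 0.15 (log2, SE). The myeloid genes Lyz2 and Cd68 differed by 0.51 ± 0.20 and -0.12 ± 0.23 (log2, SE). Of 6 B cell markers 1, Cd79b, was measured, at 52.7 to 61.3 CPM in the knockout and 50.8 to 54.7 CPM in wild type. Sums of 6 epithelial and stromal markers were 56.9 to 99.4 CPM and 59.4 to 77.9 CPM. The 9 measured ILC2 markers summed to 579 to 614 CPM in the knockout and 459 to 586 CPM in wild type. All 6 tested lay above 0, where 49.5% of all tested genes did, and none of the 6 passed by edgeR. Their median log2 fold change was 0.21, against -0.0022 over all tested genes. Areg had the lowest p of them, at 0.72 ± 0.22 (log2, SE, edgeR adjusted p = 0.218). The part of other cells in the Klf differences was not tested beyond these values.

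The Klf2 target genes known from lymphocytes did not pass the test in either direction. Of 9 listed genes 7 were tested, 0 rose and 0 fell by edgeR, 1 had an unadjusted p under 0.05 (Ccr7), DESeq2 called 0, 4 lay above 0, and the median log2 fold change was 0.049. Over all tested genes edgeR called 0.211%, DESeq2 called 0.499%, and 10.8% had an unadjusted edgeR p under 0.05. These counts therefore do not set the list apart from other genes. S1pr1, the receptor for tissue exit, was low in both groups at 6.42 ± 1.43 CPM in the knockout and 6.23 ± 1.37 CPM in wild type (SD, n = 4 each), with a log2 fold change of 0.049 ± 0.27 (SE). S1pr4, a receptor for the same lipid, had 0.19 ± 0.18 (SE, edgeR adjusted p = 0.740). Cdkn1a and Cdkn1b, which encode inhibitors of the cell cycle kinases, had 0.24 ± 0.12 and 0.22 ± 0.18 (SE). Ccr7, a lymph node homing receptor gene, had -0.86 ± 0.40 and was highest in WT replicate 1 with 36.6 CPM, where the other 7 libraries held 6.15 to 11.95 CPM.

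None of the genes upstream of Klf2 passed either. Of 11 listed, 9 were tested, 2 had an unadjusted edgeR p under 0.05 (Foxo1 and Mef2a), DESeq2 called 0, 5 lay above 0 and the median log2 fold change was 0.0022. Over all tested genes 10.8% had such an unadjusted p and edgeR called 0.211%, so these counts do not set the list apart either. Map2k5 and Mapk7, the kinase pair MEK5 and ERK5 that act through MEF2 factors on Klf2, differed by 0.26 ± 0.13 and 0.33 ± 0.17 (log2, SE), and their adjusted p by edgeR were 0.484 and 0.516. Mef2a had -0.52 ± 0.23 and Mef2d 0.0022 ± 0.13, and Mef2c held too few counts to test. Foxo1, which drives Klf2 in T cells, stood at 17.7 ± 3.06 CPM in the knockout and 23.0 ± 3.83 CPM in wild type, and differed by -0.39 ± 0.18 on the log2 scale (SE, edgeR adjusted p = 0.442).

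Partners and relatives of the KLFs did not pass by edgeR or DESeq2, and of the 15 tested only Fbxw7 had an unadjusted edgeR p under 0.05. The shares over all tested genes were 0.211% called by edgeR, 0.499% by DESeq2 and 10.8% with an unadjusted edgeR p under 0.05. Of 10 cofactors 8 were tested, with a median log2 fold change of 0.016. Ctbp1, the corepressor that Klf3 binds, had 0.20 ± 0.10, Sin3a 0.28 ± 0.18, the deacetylase gene Hdac2 0.20 ± 0.15 and the acetyltransferase gene Kat2b -0.39 ± 0.20 (SE). Of 5 ubiquitin ligase genes linked to turnover of KLF proteins 4 were tested, with Fbxw7 at 0.44 ± 0.20, Smurf1 at 0.15 ± 0.22, Smurf2 at 0.11 ± 0.25 and Itch at -0.15 ± 0.23 (SE). The Sp factors share the zinc finger type and the GC box with the KLFs. Of 9 listed, 3 were tested, with log2 fold changes of 0.11 ± 0.17 for Sp1, 0.34 ± 0.17 for Sp2 and -0.019 ± 0.13 for Sp3 (SE). Sp2 did not overlap between groups, at 19.3 to 23.2 CPM in the knockout and 13.8 to 18.9 CPM in wild type (edgeR adjusted p = 0.475). Groups did not overlap in 5.22% of all tested genes.

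**Figure D5:**
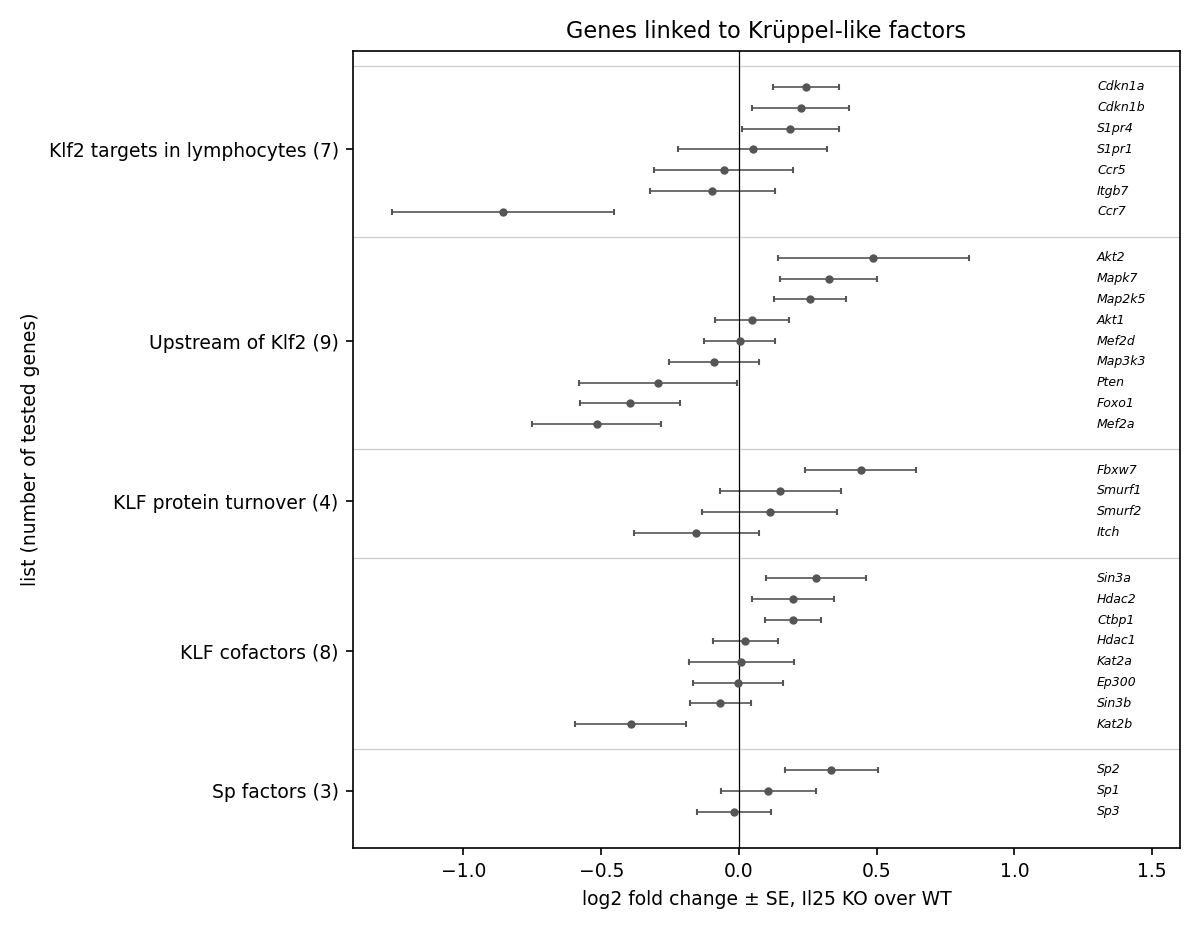
Log2 fold change of Il25 KO over WT with its SE for the tested members of 5 lists linked to Krüppel-like factors, ordered within each list. The medians are between 0.0022 and 0.13, and none of the 31 genes had an edgeR adjusted p under 0.05, against 0.211% of all tested genes.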

How the data were processed

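The authors deposited 1 table of 10913 genes by symbol, with raw UMI counts for 8 libraries. Per the labels' protocols, RNA of sorted cells was made into MARS-seq libraries. Genome build mm10 and the tools STAR 2.5.2b, HTSeq, DESeq2, cutadapt and bcl2fastq appear, without roles, in the submitters' processing notes. The annotation and the strand setting were not given in the sources used here. Overlapping and antisense genes are therefore uncertain. The deposited normalized signal is the count divided by a factor per library, as found from the values. Regularized log2 values, a log2 fold change of WT over KO and p-values were also deposited by the authors, and none of these is used here.

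The test was edgeR 4.0.16 under R 4.3.3: filterByExpr (minimum count 10) kept 9016 genes, TMM factors ran from 0.949 to 1.058, and a quasi-likelihood test with group as the only term was adjusted by Benjamini-Hochberg (threshold 0.05). SEs come from the F statistic. CPM use TMM-scaled library sizes of tested genes. The code was tested on simulated data. No pair of libraries agreed within sampling noise. Alternatives covered scaling, filter, DESeq2 1.42.0, limma-voom (limma 3.58.1), a replicate block, total count and each library left out. The members and gene lists were chosen with earlier results of these data known. Named genes are all members, up to 4 genes of lowest p per list among those described, and the 3 genes nearest to Klf2, Klf6 and Klf7. S1pr1, Mef2d, Tbx21, Dntt, Bcl11b, Il13, Il4 and Icos are named outside this rule, after their values were seen. Promoters matched by symbol for 8 of 10 members, not for Klf10 and Klf16. Some listed genes are not reported here and were left out of list counts and sums.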

Additional observations from a re-analysis of the deposited data

How the results depend on the processing

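Klf2, Klf6, Klf7, Klf4, Klf9 and Klf11 kept their direction under all 18 alternatives tried, 16 of them planned and the 2 list covariates added after seeing the data. Klf2 ranged from 0.48 to 1.09 on the log2 scale, Klf6 from 0.50 to 0.81 and Klf7 from -1.22 to -0.91. The count of other Klf genes called by edgeR was 0 under every alternative, by DESeq2 and by limma-voom, with at most 2 at an unadjusted p under 0.05. Over all genes edgeR called 19, against 45 by DESeq2, 60 with the replicate block, 40 with log2 total count as a covariate, 0 with the heat shock covariate, and 1 to 39 when 1 library was left out. Same-numbered libraries correlated at -0.007 to 0.136 in their deviations, so the numbers were not taken to pair the samples. With the replicate block Klf2, Klf6 and Klf7 stood at 0.86, 0.65 and -1.06, and 0 other Klf genes were called.

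Directions turned only near 0. Klf13 stood at 0.015 with library size alone, 0.0011 by limma-voom, 0.14 with the thymocyte and T cell covariate, and -0.13 to 0.11 when 1 library was left out. Klf3 stood at -0.034 with the thymocyte and T cell covariate and at -0.013 to 0.24 when 1 library was left out. With the heat shock covariate both moved away from 0 and kept their direction. Klf3 then stood at 0.54 ± 0.19 (SE, edgeR adjusted p = 0.322) and Klf13 at -0.33 ± 0.23 (SE, edgeR adjusted p = 0.663). Klf10 stood at -0.14 with the heat shock covariate, and Klf16 at -0.15 to 0.25 when 1 library was left out. Apart from the removal of libraries and list genes, the cause of these changes was not tested. Counts were lowest for Klf9, Klf11 and Klf10, with 111, 230 and 255 UMIs in all and SEs of 0.20 to 0.30, and Klf16 with 380 UMIs had an SE of 0.21, so the part of depth in these errors was not tested.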

Other observations

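Klf5, an activator known from gut epithelium, held 25 UMIs in the knockout and 14 in wild type, each summed over 4 libraries. Klf1, the red cell member, held 11 and 13. Neither passed the count filter, and no fold change is given.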
